A study of Homo sapiens with 4 samples.

Results

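The kinetochore and spindle checkpoint genes were taken as every gene whose symbol in the platform annotation, or in the current gene table, starts with CENP and a further letter (CENPJ, a centriole gene, left out), together with a list of named genes. These are the subunits of the NDC80, MIS12 and KNL1 complexes, the RZZ and SKA complexes, the checkpoint genes BUB1, BUB1B, BUB3, MAD1L1, MAD2L1 and TTK, the shugoshin genes SGO1 and SGO2, and SPDL1. In all, 48 such genes had a probe, and 44 of them were detected at a detection p under 0.01 on 2 or more of the 4 arrays, out of 10239 genes tested. CENPC, MAD1L1, CENPVL1 and CENPVL2 had no array past that limit. Of the 44, 41 had the spelling of the rule in the annotation, and KNL1, SGO1 and SGO2 were found through their older names CASC5, SGOL1 and SGOL2.

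The arrays measured mRNA in A549 cells, an established line derived from a lung adenocarcinoma, collected 24 hours after lipid transfection. A first group of 2 arrays came from cells given a negative control mimic, and a second group of 2 from cells given a mimic of the microRNA miR-509-3p, both kept in the same serum-containing medium. No dose of either mimic and no sequence of the control were used here, and no label says that arrays of a group came from separate cultures. The p-values therefore reflect the spread among the 4 arrays alone, possibly a technical one, and the number of arrays limits the precision.

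The kinetochore is the protein assembly that ties each sister chromatid to the spindle. An inner layer is built on nucleosomes that carry the histone variant CENP-A, an outer layer binds microtubule ends, and a fibrous corona brings in the motors dynein and CENP-E. The spindle checkpoint starts at kinetochores without microtubules, where BUB and MAD proteins form an inhibitor of the anaphase-promoting complex. Most of these genes are transcribed late in the cell cycle, so their mRNA level in a culture depends in part on how many cells are dividing. In bulk RNA, fewer such cells and less RNA per cell cannot be told apart.

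The mimic copies a mature microRNA that acts mainly through pairing of its seed, bases 2 to 8, with messenger RNAs. It is shown because it is the labelled difference between the groups, and its seed stands in capitals.
hsa-miR-509-3p: uGAUUGGUacgucuguggguag
RefSeq lists this sequence at 3 loci on the minus strand of human chromosome X (GRCh38.p14), MIR509-1 at chrX:147260550-147260571, MIR509-2 at chrX:147258775-147258796 and MIR509-3 at chrX:147259662-147259683. Among 2545 mature entries of the RefSeq table, no other miRNA name had the seed GAUUGGU. Seed matches in the members' transcripts were not analysed here.

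The arrays were alike in quality. Between 33.7% and 34.7% of probes were detected on each, the normalized log2 signals correlated at 0.993 and 0.995 within groups and at 0.970 to 0.972 across groups, over probes, which are not independent replicates. Of 14 markers of lung epithelium and A549 cells, 9 were detected, including KRT8, EPCAM and AKR1B10, while NKX2-1, SFTPB, SFTPC and AKR1C1 passed on no array and KRT18 on 1. Of markers of other cell types, PTPRC, PECAM1, CDH5, COL1A2 and PDGFRB were not detected on any array. COL1A1, THY1, ESAM, CD14, CD68 and ITGAM were detected on all 4 arrays. Their log2 differences (mimic minus control) were, in that order, 0.01, 0.95, -1.11, 0.45, 0.93 and -0.42. Of the whole lists, 2 of 9 fibroblast, 1 of 7 endothelial and 3 of 10 leukocyte markers were detected, with summed normalized signals of 259 to 270, 400 to 426 and 4249 to 4474 on the control arrays and 385 to 431, 182 to 201 and 6842 to 7080 on the mimic arrays. Their part in the results was not tested.

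With the miR-509-3p mimic, a few kinetochore genes moved, in both directions, and most did not pass the test. ZW10, a subunit of the RZZ complex of the corona, rose 3.56-fold, and SKA2, a subunit of the SKA complex that tracks microtubule ends, rose 2.00-fold. The widest falls were those of CENPP, a subunit of the inner kinetochore, of SPDL1, the dynein adaptor Spindly, of NUF2, a subunit of the microtubule-binding NDC80 complex, and of CENPI, another inner subunit. Among the 44 detected genes there were 8 falls and 5 rises, and 31 genes were not called. The limit for a call was 0.05 after Benjamini-Hochberg adjustment of limma's p-values over all genes.

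These 13 calls are 29.5% of the members, where 34.4% of all genes were called. By direction, 18.2% of the members fell, against 16.5% of all genes, and 11.4% rose, against 18.0%. The shares are near those of all genes, so the counts say nothing particular about kinetochore genes. The median difference of the members was 0.0024 on the log2 scale and that of all genes 0.04, with median absolute differences of 0.24 and 0.25. In 28 of the 44 the groups did not overlap, or 63.6%, against 72.9% of all genes; 15 were lower and 13 higher, against 32.8% and 40.1% of all genes. Over 1.5-fold without overlap, 4 members were lower and 2 higher, where 10.3% and 8.96% of all genes were. ZW10 alone was shown to differ over 2-fold, a size that the fitted values of 5.85% of all genes passed without overlap in either direction. The fitted value of CENPP passed it too, but its probe was detected on the control arrays only. On the background-corrected scale its fall is estimated at 1.97-fold or more. With median scaling in place of quantile normalization, 6 members fell and 2 rose, or 18.2%, against 29% of all genes, and CENPM, CENPS, DSN1, SPC25 and ZWILCH no longer passed. When control 1 was left out, 4 members fell and 2 rose, with 21.8% of all genes called. Leaving out control 2 gave 1 fall and 3 rises (20.5% of all genes), leaving out mimic 1 gave 1 fall and 2 rises (8.96%), and leaving out mimic 2 gave 0 falls and 2 rises (9.57%). ZW10 and SKA2 rose in each of these 4 fits.

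**Figure D1:**
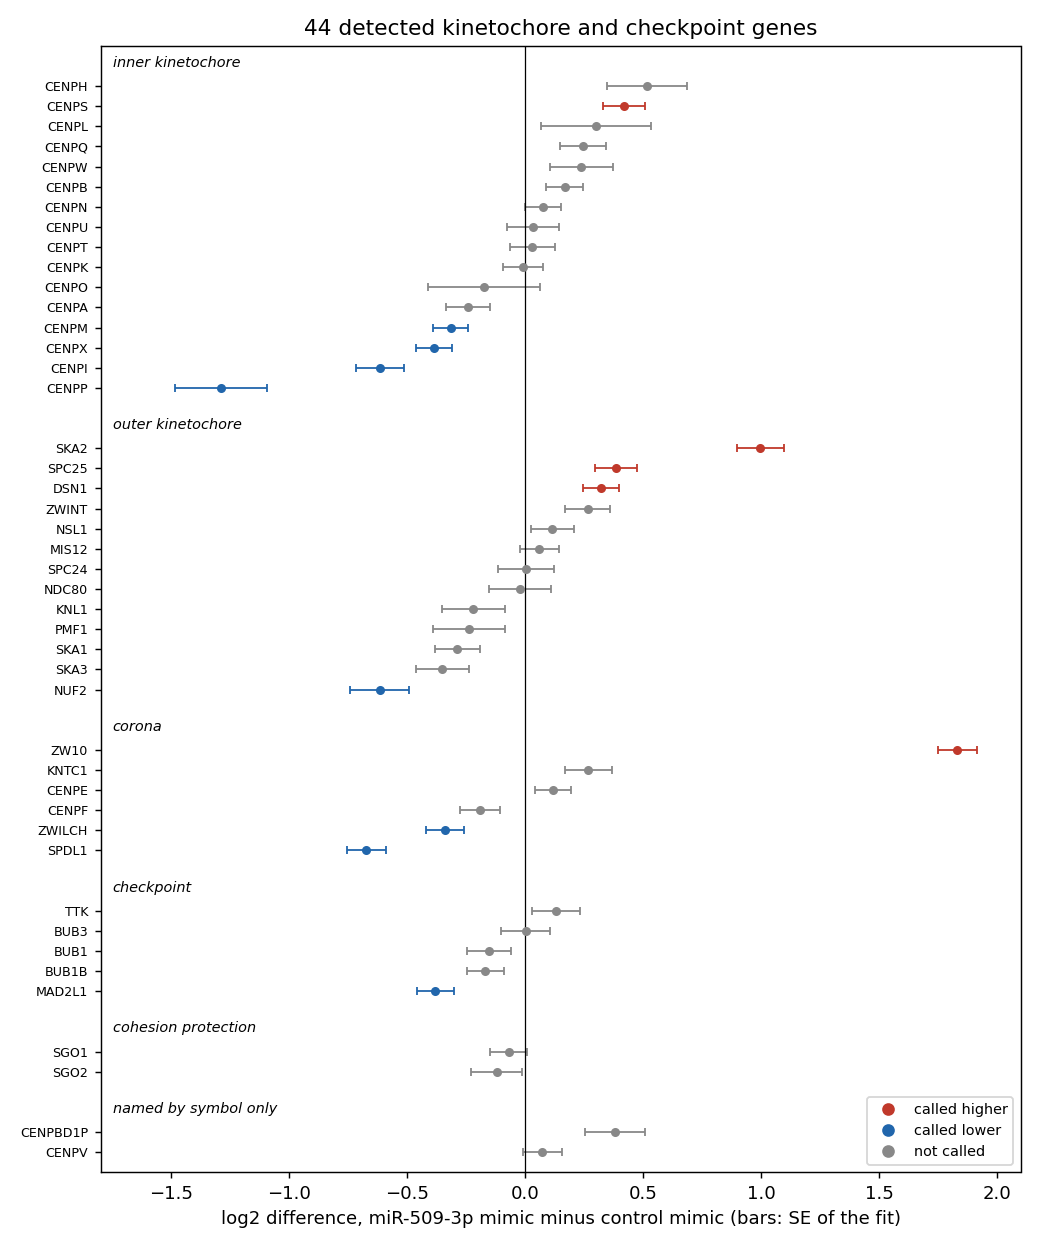
Log2 difference (mimic minus control) of the 44 detected genes, by role, with the SE of the fit as bars; red and blue points passed the test. ZW10 lies at the upper end at 1.83 and CENPP at the lower end with a fitted -1.29. On this background-corrected scale the fall of CENPP is estimated at 1.97-fold or more. Most other genes lie between -0.40 and 0.40.

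**Figure D2:**
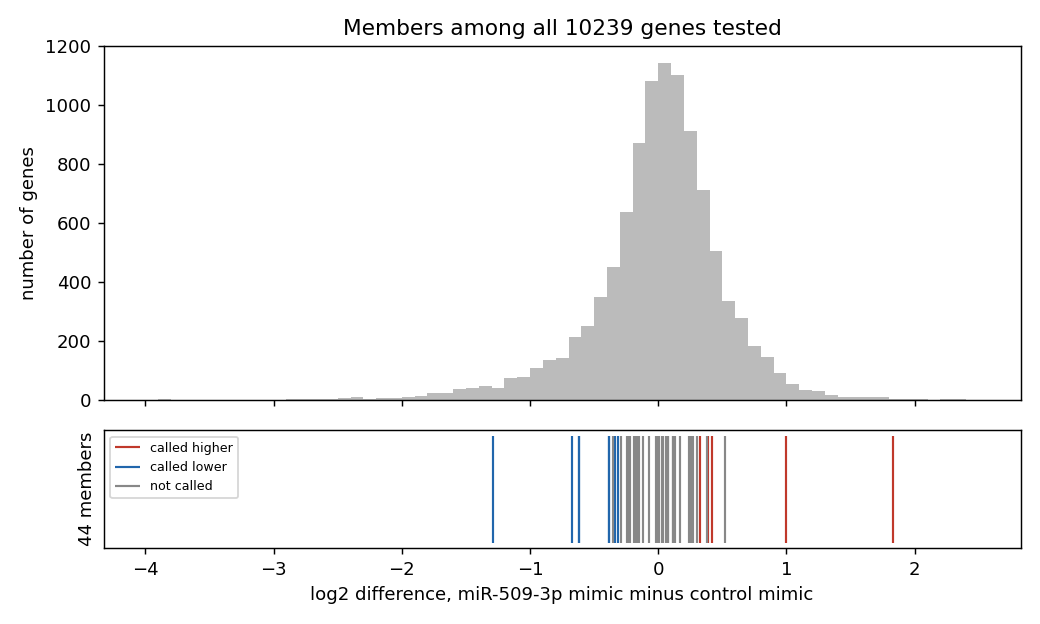
Number of genes by log2 difference (bins of 0.1) for all 10239 genes tested, above the 44 members as lines on the same axis. The members spread on both sides of 0, as all genes do, and ZW10 lies farthest out at 1.83. CENPP is drawn at its fitted -1.29, and on this background-corrected scale its fall is estimated at 1.97-fold or more.

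Within the inner kinetochore, which is assembled on centromeric chromatin, 16 of 17 genes were detected, of which 4 fell, 1 rose and 11 did not pass. The 25% that fell and 6.25% that rose stand against 16.5% and 18.0% of all genes, and rest on few genes. CENPP, a subunit of the CENP-O subcomplex, read 7.58 and 7.87 on the control arrays and 6.66 and 6.21 on the mimic arrays (normalized log2 signal). The groups did not overlap, but neither mimic array had the probe well above background. On the background-corrected scale CENPP was thus estimated to be at least 1.97-fold lower with the mimic. Its measured means were 7.73 and 6.44, with an adjusted p of 0.0121 (limma, Benjamini-Hochberg). CENPP entered the test only through the control arrays, where it was high, so its call and its place among the 8 falls depend on that choice. With detection required on all 4 arrays it drops out, and 7 members fell and 5 rose of 43, or 27.9%, against 38.5% of all genes. The bound sets the control mean against the lowest detected signal, or the probe's own where higher, on each mimic array. It is a point value without a sampling error. The fitted log2 difference of CENPP, -1.29 ± 0.20 (SE), became -0.65 without background correction, a smaller fall than the bound. It did not pass without control 2 or without mimic 2.

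CENPI, which joins CENPH, CENPK and CENPM in a subcomplex needed to load the rest of the inner kinetochore, read 9.53 and 9.62 on the control arrays and 8.86 and 9.06 on the mimic arrays. Both mimic values lay below both control values. CENPI fell by 0.61 ± 0.10 on the log2 scale, which is 1.53-fold (adjusted p = 0.0149, limma, Benjamini-Hochberg), and of the fits with 1 array left out it passed only in that without control 1. CENPM read 10.75 and 10.73, then 10.43 and 10.41 with the mimic, and fell by 0.32 ± 0.07. Here the arrays of a group nearly coincided and the shift between groups was small. CENPH and CENPK were not called. CENPH read 8.97 and 9.25 on the control arrays and 9.44 and 9.81 on the mimic arrays, a difference of 0.52 ± 0.17 (adjusted p = 0.0788, limma, Benjamini-Hochberg), the widest among the members that were not called. It passed without background correction (adjusted p = 0.0355), with the authors' values (0.0444), with trend and robust variance (0.0143) and in the fit with replicate number as a block (0.0336), all by limma. CENPH passed in none of the other alternatives, median scaling and detection on all 4 arrays among them. CENPK differed by -0.0088 ± 0.09.

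CENPS and CENPX are histone-fold proteins that pair with each other, and with CENPT and CENPW, and both also serve in DNA repair with FANCM. CENPX read 13.38 and 13.39 on the control arrays and 13.03 and 12.96 on the mimic arrays, and fell by 0.39 ± 0.08. CENPS read 11.22 and 11.30, then 11.62 and 11.74 with the mimic, and rose by 0.42 ± 0.09. The 2 partners therefore moved in opposite directions, each without overlap between groups, with adjusted p-values of 0.0231 and 0.0263 (limma, Benjamini-Hochberg). CENPT and CENPW, at 0.03 ± 0.09 and 0.24 ± 0.13, did not pass. None of CENPM, CENPS and CENPX passed in any of the 4 fits with 1 array left out, leaving out control 1, control 2, mimic 1 or mimic 2. RefSeq also lists a read-through gene, CENPS-CORT, whose transcripts these probes may share.

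CENPA, the histone H3 variant that marks the centromere, read 10.81 and 10.91 on the control arrays and 10.55 and 10.69 on the mimic arrays, a difference of -0.24 ± 0.09 that did not pass. A second kept CENPA probe differed by -0.49 ± 0.08 (adjusted p = 0.0184 over kept probes, limma, Benjamini-Hochberg), and the mean of both probes, at -0.37, passed. CENPB, which binds the alphoid satellite, and CENPL, CENPN, CENPO, CENPQ and CENPU, subunits of the constitutive network, did not pass, with differences between -0.18 and 0.30. CENPL and CENPO had SEs of 0.23 and 0.24, the widest of the members, so moderate changes in them were not detectable here.

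**Figure D3:**
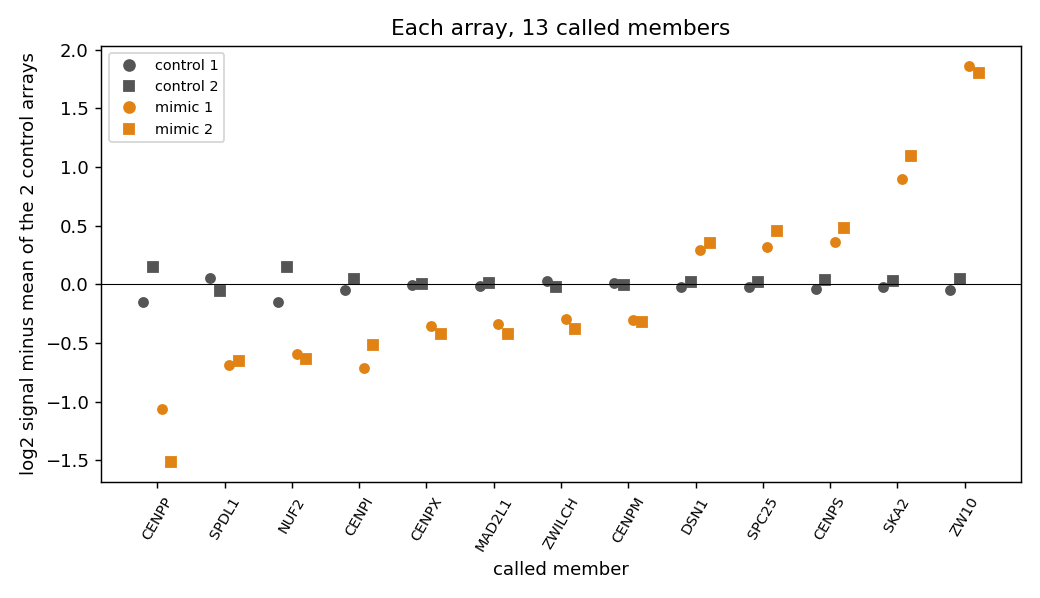
Normalized log2 signal of each of the 13 called members on each array, relative to the mean of the 2 control arrays; grey symbols are control and orange symbols mimic arrays. The groups do not overlap for any of the 13, which were chosen by their calls on these same arrays, and 72.9% of all genes show no overlap. ZW10 stands at about 1.8 on both mimic arrays.

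The outer kinetochore holds the NDC80 complex, which grips the microtubule, the MIS12 and KNL1 complexes, which anchor it, and the SKA complex, which strengthens the grip. All 13 of its genes were detected, of which 3 rose, 1 fell and 9 did not pass. The 23.1% that rose and 7.69% that fell stand against 18.0% and 16.5% of all genes. These are few genes, and the layers were not tested against each other.

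SKA2 read 11.58 and 11.63 on the control arrays and 12.50 and 12.70 on the mimic arrays. Both mimic values lay above both control values, by far more than the arrays of a group differed. SKA2 rose by 1.00 ± 0.10 on the log2 scale, or 2.00-fold (adjusted p = 0.00495, limma, Benjamini-Hochberg), and ranked 183 among 5585 genes with a difference above 0. It passed under all 12 alternative settings, with values between 0.90 and 1.09. A second kept probe rose by 1.07 ± 0.11. SKA1 and SKA3, which form the complex with SKA2, were lower on both mimic arrays than on either control array, as were 32.8% of all genes. At -0.29 ± 0.10 and -0.35 ± 0.11 they did not pass (adjusted p = 0.0801 and 0.0737, limma, Benjamini-Hochberg). The difference between the 3 subunits was not tested. RefSeq places the miRNA genes MIR301A and MIR454 within SKA2, on its strand, and their products were not analysed here.

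In the NDC80 complex, NUF2 read 10.07 and 10.37 on the control arrays and 9.62 and 9.58 on the mimic arrays. SPC25 read 9.20 and 9.24, then 9.53 and 9.67 with the mimic. NUF2 fell by 0.62 ± 0.12 and SPC25 rose by 0.39 ± 0.09 (adjusted p = 0.0241 and 0.0328, limma, Benjamini-Hochberg). Their products are parts of the same 4-subunit rod. Neither gene's groups overlapped. NDC80 and SPC24, the other two subunits, differed by -0.02 ± 0.13 and 0.0034 ± 0.12. NUF2 passed without control 1 but not without control 2, mimic 1 or mimic 2, and SPC25 passed in none of these fits.

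In the MIS12 complex, DSN1, the subunit that Aurora B regulates, read 9.61 and 9.65 on the control arrays and 9.92 and 9.98 on the mimic arrays. It rose by 0.32 ± 0.08 (adjusted p = 0.0362, limma, Benjamini-Hochberg), without overlap. Its difference stayed between 0.27 and 0.35 under all 12 alternatives, but it no longer passed when control 1, control 2, mimic 1 or mimic 2 was left out. MIS12, NSL1 and PMF1 differed by 0.06, 0.12 and -0.24 and did not pass. PMF1 shares transcripts with the read-through gene PMF1-BGLAP, per RefSeq. KNL1, the scaffold for BUB proteins, and its partner ZWINT, at -0.22 ± 0.13 and 0.26 ± 0.10, did not pass either.

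The corona is the outermost layer, in which the RZZ complex (ZW10, ZWILCH and KNTC1, also called ROD) recruits Spindly, dynein and the MAD1 and MAD2 proteins. All 6 of its genes were detected, and 1 rose, 2 fell and 3 did not pass. So few genes say little beside the 18.0% of all genes that rose and the 16.5% that fell. The groups did not overlap for any of the 6, 3 higher and 3 lower with the mimic, where 72.9% of all genes showed no overlap, so this says nothing particular about the corona.

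ZW10 read 8.85 and 8.95 on the control arrays and 10.76 and 10.70 on the mimic arrays. It was the member with the widest difference, and it ranked 11 among the 5585 genes above 0. From 8.90 ± 0.07 to 10.73 ± 0.05 (SD, n = 2 each), the rise was 1.83 ± 0.08 (SE, adjusted p = 0.00226, limma, Benjamini-Hochberg). It passed under all 12 alternatives, with values from 1.56 to 1.88, and rests on a single probe. ZWILCH, which binds ZW10's partner ROD, read 10.54 and 10.49 on the control arrays and 10.21 and 10.13 on the mimic arrays. It fell by 0.34 ± 0.08 (adjusted p = 0.0353, limma, Benjamini-Hochberg), while KNTC1, at 0.27 ± 0.10, did not pass. The 3 subunits of the complex thus gave a rise, a fall and no call.

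SPDL1, whose product Spindly couples RZZ to dynein and helps to strip checkpoint proteins once microtubules attach, read 12.25 and 12.14 on the control arrays and 11.51 and 11.54 on the mimic arrays. Every mimic value lay below every control value. SPDL1 fell by 0.67 ± 0.08, or 1.60-fold (adjusted p = 0.00753, limma, Benjamini-Hochberg). It still passed with control 1 or control 2 left out, but not with mimic 1 or mimic 2 left out, and ZWILCH passed in none of these 4 fits. CENPE, a plus-end motor, and CENPF, a large coiled-coil protein of the corona, differed by 0.12 ± 0.08 and -0.19 ± 0.08 and did not pass.

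Among the checkpoint genes, 5 of 6 were detected, 1 fell and 4 did not pass, so 20% were called, against 34.4% of all genes. MAD2L1, whose product MAD2 is the core of the checkpoint inhibitor, read 12.28 and 12.30 on the control arrays and 11.95 and 11.87 on the mimic arrays. MAD2L1 fell by 0.38 ± 0.08, or 1.30-fold (adjusted p = 0.0255, limma, Benjamini-Hochberg), without overlap between the groups. A second kept probe differed by only -0.01 ± 0.15, and with the mean of both probes the difference was -0.20 and did not pass. It also failed to pass without control 1, control 2, mimic 1 or mimic 2. The kinase BUB1 and its relative BUB1B, which encodes BUBR1, lay at -0.15 ± 0.09 and -0.17 ± 0.08 and did not pass. These genes were lower on both mimic arrays than on either control array, as were 32.8% of all genes. BUB3, the adaptor of both, lay at 0.0014 ± 0.10, and its 3 further kept probes lay between -0.10 and 0.14. TTK, the kinase MPS1 that starts the checkpoint, lay at 0.13 ± 0.10. MAD1L1, which encodes the platform for MAD2, was not well above background on any array.

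SGO1 and SGO2 encode shugoshins, which protect cohesin at the centromere. They differed by -0.07 ± 0.08 and -0.12 ± 0.11 and did not pass. CENPV and the pseudogene CENPBD1P, which match the CENP symbol, were assigned to none of the layers or roles above. At 0.07 ± 0.08 and 0.38 ± 0.13 they did not pass either.

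Further probes gave a check on some of these values. Of the 44 genes, 16 had 2 or more kept probes, and each gene was represented by the brightest. Among 7 called members there were 8 further probes, all 8 with the sign of the brightest probe, and 6 passed over kept probes (limma, Benjamini-Hochberg). Of all kept probes 29.7% passed, but the 7 genes were chosen by their calls on the same arrays, so the shares are not alike. The share among further probes of all called genes was not computed. The second CENPS probe rose by 0.82 ± 0.08, against 0.42 for the first, and those of NUF2 and ZWILCH fell by 0.77 ± 0.18 and 0.42 ± 0.08. Among 9 uncalled members there were 11 further probes, of which 8 kept the sign and 1, that of CENPA, passed. CENPI, CENPP, CENPX, DSN1, SPDL1 and ZW10 were called on a single kept probe. The current gene table lists pseudogenes named after 9 of the detected members, SKA2, CENPI, CENPP and MAD2L1 among them, and whether the probes also bind their transcripts was not tested.

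**Figure D4:**
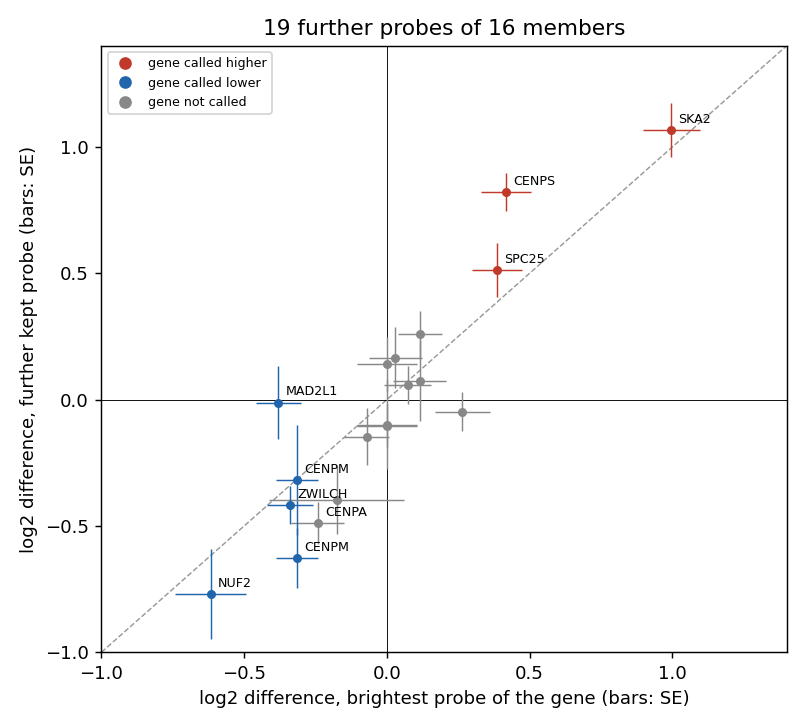
Log2 difference (mimic minus control) of each of 19 further kept probes against the brightest probe of the same gene, for 16 members, with SEs as bars and the dashed line of equality. SKA2, CENPS, SPC25, NUF2, ZWILCH and CENPM lie near or beyond the line on the same side of 0, while the second MAD2L1 probe lies near 0.

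Late cell cycle genes often carry the letters TTTGAA, known as the CHR element, and CCAAT boxes near the start site. RefSeq promoter windows (GRCh38.p14, 250 bases before to 50 after the start) were matched for 36 of the 44 detected genes. On either strand, TTTGAA was present in 38.9% of these 36, against 9.9% of 8405 promoters of genes tested and 15.4% of 27305 promoters in all. CCAAT was present in 58.3%, 37.4% and 35.7%, TTTAAA in 11.1%, 7.19% and 12.3%, and GGCGC in 86.1%, 76.6% and 48.3%. The ATTGG form of CCAAT can overlap GGCGC by its last bases. Of the 7 fallen members with a window, 3 held TTTGAA, and of the 5 that rose, 2 did. A match is a description of letters and not of a site in use.

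The windows of ZW10 and SKA2, the widest rises, and of SPDL1 and NUF2, which fell, are shown so that the letters counted above can be seen in genes that moved in opposite directions. Capitals mark TTTGAA and CCAAT on either strand. They lie at chr11:113773643-113773942 (minus strand), chr17:59155137-59155436 (minus), chr5:169583523-169583822 (plus) and chr1:163321704-163322003 (plus), each read in the direction of the gene.
ZW10: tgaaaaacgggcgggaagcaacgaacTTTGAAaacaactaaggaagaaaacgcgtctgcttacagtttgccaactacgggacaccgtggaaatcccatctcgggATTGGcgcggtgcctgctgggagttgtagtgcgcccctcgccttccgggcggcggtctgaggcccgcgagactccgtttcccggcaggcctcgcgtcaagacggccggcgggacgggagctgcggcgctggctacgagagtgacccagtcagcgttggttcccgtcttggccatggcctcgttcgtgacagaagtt
SKA2: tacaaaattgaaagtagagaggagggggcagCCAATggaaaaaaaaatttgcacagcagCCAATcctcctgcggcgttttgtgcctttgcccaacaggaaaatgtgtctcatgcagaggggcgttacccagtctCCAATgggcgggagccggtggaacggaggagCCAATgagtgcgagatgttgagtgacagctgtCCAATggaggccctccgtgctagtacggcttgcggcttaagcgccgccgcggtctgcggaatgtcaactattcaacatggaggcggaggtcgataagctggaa
SPDL1: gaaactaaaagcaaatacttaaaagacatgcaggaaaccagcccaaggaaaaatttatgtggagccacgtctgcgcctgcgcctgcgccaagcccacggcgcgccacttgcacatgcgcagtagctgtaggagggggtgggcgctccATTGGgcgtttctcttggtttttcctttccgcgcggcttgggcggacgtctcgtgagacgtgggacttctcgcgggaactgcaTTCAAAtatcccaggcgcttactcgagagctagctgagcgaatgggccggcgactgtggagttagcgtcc
NUF2: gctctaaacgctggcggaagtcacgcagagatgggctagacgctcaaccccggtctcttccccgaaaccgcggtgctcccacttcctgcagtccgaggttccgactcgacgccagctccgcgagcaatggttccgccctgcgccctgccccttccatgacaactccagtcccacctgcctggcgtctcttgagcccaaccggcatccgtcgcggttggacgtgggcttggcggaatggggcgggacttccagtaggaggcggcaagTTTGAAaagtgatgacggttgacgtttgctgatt
SKA2 held 5 CCAAT matches and no TTTGAA, ZW10 and SPDL1 held 1 of each, and NUF2 held 1 TTTGAA.

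Some members share their promoter region with a gene on the other strand, a comparison chosen after the members' values were seen. With start sites at most 1000 bases apart, 20 members had such a partner, and in 13 pairs both genes were measured. In these 13 pairs 4 partners were called, where 34.4% of all genes were, and in 1 pair both genes were called. The counts are too small to say whether partners move together. CENPP was lower with the mimic whereas NOL8, a nucleolar protein gene whose start lies 118 bases away, rose by 0.34 ± 0.08 (adjusted p = 0.0408, limma, Benjamini-Hochberg). PRR11, whose start lies 560 bases from that of SKA2, read 9.68 and 9.21 on the control arrays and 9.48 and 9.51 on the mimic arrays, so its groups overlapped while those of SKA2 did not. Its difference was 0.05 ± 0.17. DERL2, the partner of MIS12 and a gene of endoplasmic reticulum quality control, fell by 0.64 ± 0.08. PTRHD1 and MMUT, the partners of CENPO and CENPQ, rose by 0.60 ± 0.12 and 0.57 ± 0.15, and none of these 3 members passed.

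Genes that work with the kinetochore were followed in 8 lists, drawn up by known function. Of 90 measured genes, 21 fell and 15 rose, or 40.0%, against 34.4% of all genes. With median scaling 17 fell and 6 rose, or 25.6%, against 29% of all genes. Of the 36 called genes, 16 still passed with control 1 left out, 17 with control 2, 6 with mimic 1 and 7 with mimic 2, and ANAPC10, WAPL, DYNLRB1, PAFAH1B1, DCTN6 and FOXM1 passed in all 4 fits.

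The dynein motor and its partners, which RZZ and Spindly bring to the kinetochore, held the widest difference of the 8 lists. Of 22 measured, 5 rose, 3 fell and 14 did not pass, so 36.4% were called, near the 34.4% of all genes. DYNLRB1, a light chain of dynein, read 11.56 and 11.81 on the control arrays and 9.48 and 9.46 on the mimic arrays. It fell by 2.21 ± 0.11, or 4.64-fold (adjusted p = 0.00226, limma, Benjamini-Hochberg). PAFAH1B1, which encodes the dynein regulator LIS1, rose by 0.97 ± 0.07, the dynactin subunit gene DCTN6 rose by 0.72 ± 0.07, and CLASP2, a microtubule plus-end gene, fell by 0.89 ± 0.10. ZW10 also works in membrane traffic at the endoplasmic reticulum, and its partners there were measured in 4 of 7 cases. Of these 25% were called, against 34.4% of all genes. SEC22B rose by 0.29 ± 0.07, and RINT1, NBAS and BNIP1, at 0.21, 0.30 and 0.15, did not pass.

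The anaphase-promoting complex is the ubiquitin ligase that the checkpoint restrains. Of 19 measured genes in its list, 6 fell, 2 rose and 11 did not pass. The share called was 42.1%, against 34.4% of all genes, of which 16.5% fell and 18.0% rose. Whether the list differs from all genes was not tested. The subunit gene ANAPC10 fell by 0.90 ± 0.08 and the subunit gene CDC26 rose by 0.54 ± 0.07. PTTG1, which encodes the substrate securin, fell by 0.56 ± 0.08 and the activator gene CDC20 by 0.43 ± 0.08. In the passenger complex, which corrects faulty attachments, CDCA8 fell by 0.49 ± 0.08 and the kinase gene AURKB by 0.40 ± 0.08, while INCENP and BIRC5 did not pass. HASPIN, listed with the complex but not a subunit of it, did not pass either. This list had 40% called, against 34.4% of all genes. OIP5, a loader of CENP-A, fell by 0.41 ± 0.08, and the other 3 measured genes of centromere assembly did not pass. That is 25% called, against 34.4% of all genes.

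Of 11 measured genes of cohesin, the ring that holds sister chromatids together, 3 rose, 2 fell and 6 did not pass. The 45.5% called stand against 34.4% of all genes, in a short list. WAPL, which opens the ring, fell by 0.90 ± 0.09 and its partner gene PDS5B rose by 0.66 ± 0.10. STAG2 rose by 0.41 ± 0.09 while its paralog STAG1 fell by 0.41 ± 0.09. Of 11 measured regulators of late cell cycle promoters, 3 fell, 3 rose and 5 did not pass. Here 54.5% were called, against 34.4% of all genes, a difference that was not tested and rests on few genes. FOXM1, an activator of these promoters, fell by 1.35 ± 0.09. Genes of the repressing DREAM complex moved both ways. LIN54, its subunit that binds CHR elements, fell by 0.72 ± 0.09 and E2F5 by 0.31 ± 0.08. Its pocket protein genes RBL1 and RBL2 rose by 0.62 ± 0.09 and 0.52 ± 0.07, and RBBP4 by 0.34 ± 0.09. Any bearing of these changes on the members was not tested.

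Markers of proliferation and of G2 and mitosis were detected in 14 of 14 cases, and 4 fell, 1 rose and 9 did not pass. The share called, 35.7%, is near the 34.4% of all genes. PLK1 fell by 0.50 ± 0.09, CCNA2 by 0.43 ± 0.09 and CDK1 by 0.31 ± 0.08, whereas CCNB2 rose by 0.40 ± 0.10. Of the uncalled markers, MKI67 and TOP2A lay at 0.25 ± 0.11 and 0.09 ± 0.08. Both were higher on each mimic array than on either control array, as were 40.1% of all genes. AURKA and KIF11 each lay at -0.03, and CCNB1, TPX2, KIF23, PRC1 and KIF20A between -0.24 and -0.09. The summed normalized signal of the 14 was 80277 and 80100 on the control arrays and 75632 and 77685 on the mimic arrays. That sum was lower on the mimic arrays, but the markers did not all move alike, and bright genes weigh most in it. Over the 44 kinetochore and checkpoint genes the sums were 114252 and 110317 on the control arrays and 111850 and 115633 on the mimic arrays, and the groups overlapped. The part of the share of dividing cells in the members' values was not tested.

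**Figure D5:**
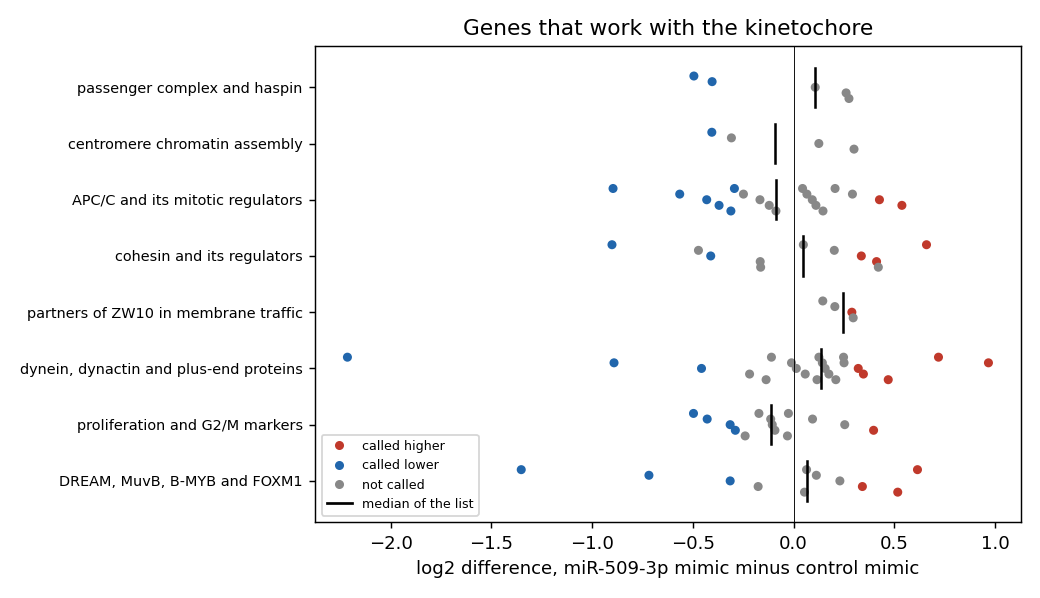
Log2 difference (mimic minus control) of the measured genes of 8 lists of kinetochore partners, 1 point a gene, with black bars at list medians; red and blue points passed the test. DYNLRB1 at -2.21 and FOXM1 at -1.35 lie farthest from 0, and every list median lies between -0.11 and 0.25.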

How the data were processed

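The authors deposited a linear intensity for each probe, with no normalization across arrays, and detection p-values. The submitters' processing notes name GenomeStudio 2009.2. The authors also deposited processed log2 values, made by steps that no label or header used here describes; they served as an alternative. Signals were corrected with limma 3.58.1 in R 4.3.3 (neqc: normexp with the detection p-values, offset 16, quantile normalization, log2). Probes detected at p under 0.01 on 2 or more of 4 arrays were kept, 16561 of 47320. A gene was its brightest kept probe, named through the platform annotation and a GRCh38.p14 gene table. All kept probes were fitted with lmFit and eBayes without covariates (2 residual and 2.48 prior degrees of freedom), and Benjamini-Hochberg adjustment ran over the p-values of 10239 genes. An SE is that of the fit and an SD is over 2 arrays. No coordinates of probes were used. Slides and scan dates were not analysed here as batches.

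Every detected member is named. Array values are given for called members, for the uncalled member with the widest difference, and for CENPA, PRR11 and DYNLRB1, which were chosen after their values were seen, as were the partner genes. From each list of partners, up to 4 called genes with the largest difference are named, and E2F5 and RBBP4 besides. Members and lists were chosen with earlier results of these data known. Shared replicate numbers are not said to mark a shared culture. The alternatives were background correction, scaling, the authors' values, probe filters, averaged probes, the variance model, omission of each array in turn and a replicate block. The fit was tested on simulated data. Figures were drawn with matplotlib 3.10.9.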

Additional observations from a re-analysis of the deposited data

How the results depend on the processing

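Of the 13 called members, none changed direction under any of the 12 alternatives. In part this was fixed in advance. Their groups did not overlap, so leaving out 1 array could not reverse a sign. The variance model and the replicate block leave the difference itself unchanged. Across the 12, the difference of ZW10 lay between 1.56 and 1.88 and that of SKA2 between 0.90 and 1.09. Counts of members lower and higher were 8 and 5. They were 2 and 2 without a filter on dim probes, where 961 genes fell and 768 rose in all, or 8.63% of 20046 genes tested. The count of members that rose was 2 with median scaling, and 8, with 10 lower, with trend and robust variance, where 44.8% of all genes were called. With the replicate block, 4 members fell and 4 rose, and 25.7% of all genes were called; deviations of arrays with the same number correlated at -0.06, so the numbers are not shown to pair the arrays. Leaving out 1 array at a time gave 0 to 4 members lower and 2 to 3 higher, and 607 to 1089 genes lower and 310 to 1140 higher in all. These fits have fewer residual degrees of freedom, and the lone array of a group is assumed to vary like the other group. Without background correction, with the authors' values, with detection on all 4 arrays and with averaged probes, the counts of members stayed within 7 to 8 lower and 5 to 6 higher. CENPP had no value under detection on all arrays.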
